A study of Mus musculus with 2 samples.

Results

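The 90 genes described here encode homeobox, Pax and Zic patterning factors. They were chosen by symbol alone, as the rows of a 16803-gene expression table whose symbols are numbered members of the Hox, Pax, Lhx, Nkx, Dlx, Otx, Emx, Meis, Pbx, Irx, Msx, Gsx, Gbx, En, Zic and Six-type families. RNA-seq was performed on the established mouse line NE4C, neural stem cells that were derived from the anterior brain vesicles of p53-deficient embryos, so both groups share that genotype. The control group was the normal culture. The HTL treatment group was cultured with HTL, homocysteine thiolactone, which is the reactive ring form of homocysteine, and neither its dose nor its duration is given in the labels for these libraries. Each group had 1 library, with 10350665 reads assigned to genes in control and 9102076 in HTL treatment. With 1 library a group there is no replicate error: every interval, floor and test below covers counting error only, and each test compares these 2 libraries and not the conditions. The reads carry no molecular identifiers and are not independent molecules.

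Patterning factors are transcription factors that give cells of the embryo their position. The homeodomain is a small DNA-binding fold whose recognition helix lies in the major groove, and the residue at its position 50 is known to help choose the bases next to the shared TAAT core. In the neural tube, Otx factors mark forebrain and midbrain, En factors mark the midbrain-hindbrain boundary, and Hox genes mark hindbrain and spinal cord in the order of their place along each cluster. Pbx and Meis proteins belong to the TALE class of homeodomains and bind DNA together with Hox proteins. Zic proteins bind DNA through zinc fingers and act in dorsal neural tube and neural tube closure.

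The stretch of the recognition helix that carries residue 50 is shown for 12 members that the results name, because it is the feature that divides these families by DNA contact. Each line gives 30 coding bases, 5′ to 3′, read from the NCBIM37 (mm9) genome, with the codon of residue 50 in capitals.
Otx2: caggtatggtttAAGaatcgaagagctaag
Six5: agcaactggttcAAGaaccggcgacagcgc
Pbx2: tccaactggttcGGTaacaagcgaattcgc
Pbx3: tccaactggtttGGCaacaaacgaatcagg
Meis1: aacaattggtttATTaatgcccggagaaga
Meis2: aacaactggtttATCaatgccagaagaaga
En1: aagatctggttcCAAaacaagcgtgccaag
En2: aagatttggttcCAGaacaagcgggccaaa
Lhx2: caggtctggtttCAGaatgcccgggccaag
Hoxb9: aaaatctggtttCAGaaccggcggatgaaa
Hoxb13: accatctggtttCAGaaccgccgggtcaag
Pax6: caggtatggtttTCTaatcgaagggccaaa

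These stretches are exonic. The stretch of Otx2 spans chr14:49278975-49280976 on the minus strand and is split by an intron, as are those of Meis1 (chr11:18785633-18805699, minus), Meis2 (chr2:115694518-115747415, minus), Lhx2 (chr2:38215621-38224388, plus) and Pax6 (chr2:105532431-105532653, plus). The others each lie in a single exon, at chr7:19680700-19680729 (plus) for Six5, chr17:34731749-34731778 (plus) for Pbx2, chr2:34033830-34033859 (minus) for Pbx3, chr1:122503629-122503658 (plus) for En1, chr5:28496838-28496867 (plus) for En2, chr11:96136108-96136137 (plus) for Hoxb9 and chr11:96057469-96057498 (plus) for Hoxb13. A homeobox of this form was found in 81 of the 90 members. Residue 50 was glutamine in 58 of them, which took in all Hox, Dlx, Emx, En, Gbx, Gsx, Lhx, Msx and Nkx members. It was lysine in 8 (Otx-type and Six-type), alanine in 6 (Irx), glycine in 4 (Pbx), isoleucine in 3 (Meis) and serine in 2 (Pax3 and Pax6). The other 9 were the 5 Zic genes and Pax1, Pax2, Pax8 and Pax9. Close relatives shared most bases of this stretch: Pbx2 and Pbx3 shared 24 of 30 bases, Meis1 and Meis2 shared 26, En1 and En2 shared 26, and Hoxb9 and Hoxb13 shared 24.

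Most of the 90 genes were low in both libraries. The level is given as FPKM, reads per kilobase of transcript per 1000000 reads, as deposited, and a gene was counted as expressed at an FPKM of at least 1. In control 34 members were expressed (37.8%, against 67.6% of all genes in the table) and in HTL treatment 36 (40.0%, against 65.6%). Every member had a read in at least 1 library. Genes of these families that the table does not list, such as Pax7 and Emx1, are not counted, so the shares hold for listed genes only. Both libraries expressed 32 members, either expressed 38, and 52 stayed below 1 in both. Hoxd8 and Nkx3-2 passed in control alone, and Dlx5, Irx3, Lhx6 and Msx2 in HTL treatment alone. A count of 0 was found for 6 members in control and 9 in HTL treatment, which allows up to 3 reads, or 0.29 CPM (reads scaled to a library total of 1000000) in control and 0.33 CPM in HTL treatment. The median FPKM of the members was 0.35 in each library, against 4 for all genes in control and 3.36 in HTL treatment.

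Within the expressed set, a few genes held most of the signal. The FPKM of the members summed to 345.8 in control and 265.3 in HTL treatment. Otx2, Pbx2, Pbx3 and Zic1 were among the leading genes in control. In HTL treatment the 5 leading genes were Otx2, Hoxb13, Pbx2, Zic1 and Pbx3, with 53.5%. In reads, the members took 1004 CPM in control and 715 CPM in HTL treatment. Fewer cells expressing a gene and less RNA per cell cannot be told apart in such bulk libraries.

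**Figure D1:**
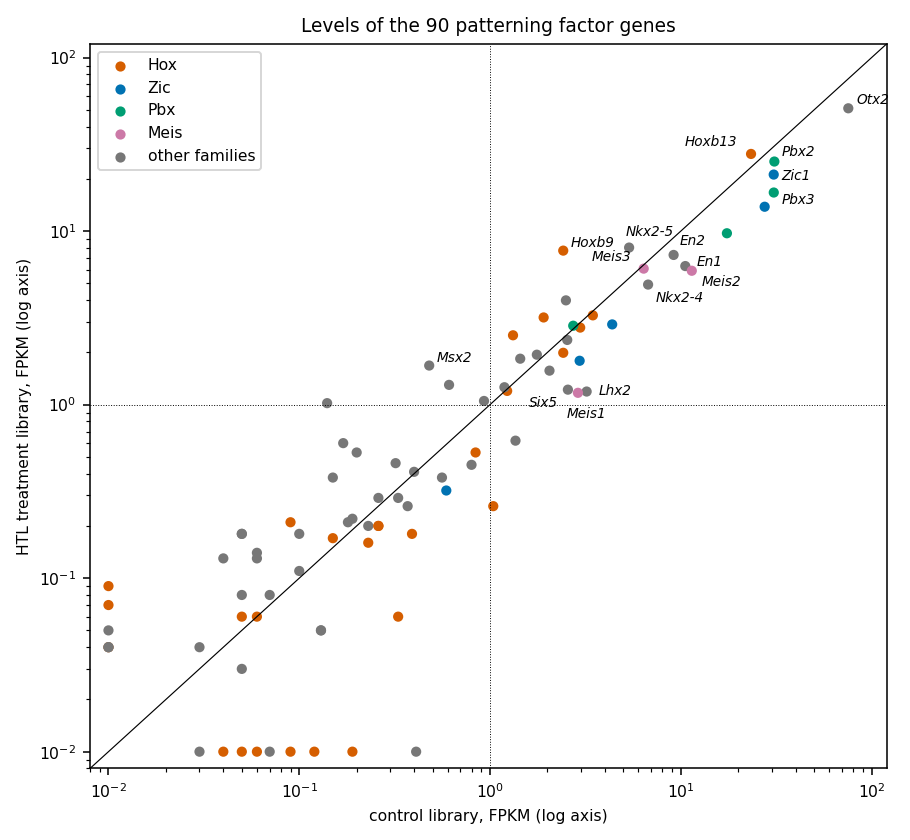
FPKM of each of the 90 members in the control library (horizontal, log axis) and the HTL treatment library (vertical, log axis), with the line of equal values and dotted lines at an FPKM of 1; 0.01 is the lowest deposited value and stands for 0 reads. Otx2 was highest in both libraries (75.5 and 51.0), and Zic, Pbx and Meis points lay mostly below the line, while Hoxb9 lay above it (2.42 and 7.72).

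The second question was which members differed between the libraries. Reads were compared with the library totals by a two-sided exact binomial test over the 13442 genes whose summed reads reached 10, with Benjamini-Hochberg adjustment over all of them. This filter passed 54 members and left out 36. Calls required an adjusted p no larger than 0.001 together with a log2 ratio of 1 or more in either direction. Hoxb9 and Msx2 were called higher after HTL, 2 of 54 members, where 2.81% of all genes tested were called higher. Lhx2, Meis1 and Six5 were called lower, 3 of 54 members, where 7.98% of all genes tested were called lower. Those shares, 3.70% and 5.56%, were near the background. By the adjusted p alone, 2 members were higher (3.70%, against 14.5% of all genes tested) and 11 were lower (20.4%, against 24.1%). Passing on p alone depends on depth, and the members were more thinly counted. A mean below 100 reads was found for 40 of the 54 members, against 4914 of the 13442 genes tested.

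The split between higher and lower depended on the scaling of the libraries. Log2 ratios rose by 0.13 with TMM and by 0.14 with median of ratios, and all genes then gave 553 higher and 798 lower calls with TMM, against 378 and 1072 with library totals. The median log2 ratio of the members tested was -0.28, against -0.14 for all genes tested, and -0.15 against -0.01 with TMM. Of the 54 members, 34 had a log2 ratio below 0 (63.0%, against 58.7% of all genes tested), and 29 with TMM (53.7%, against 50.6%). Hoxc4, Hoxd3, Hoxd4, Meis3 and Nkx6-2 were the members whose sign turned, from log2 ratios between -0.10 and -0.02.

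Among the better counted members the lower side was more frequent. Of 14 members with a mean of at least 100 reads, 12 had a log2 ratio below 0 (85.7%, against 56.6% of the 8528 genes with as many reads), with a median of -0.55 against -0.09. The 2 above 0 were Hoxb9 and Hoxb13, and Meis3 joined them with TMM. Among the 40 members with fewer reads, 22 were below 0, and their median was -0.09 against -0.28 for all such genes. Transcript length also moved with the log2 ratio: its median over all genes ran from 0.14 in the shortest of 10 bins of nearly equal gene number to -0.38 in the longest. Of the 14 better counted members, Meis2 and Six4 were in the bin next to the longest. Zic4, with fewer reads, was in the one before it. Counted from the shortest, Otx2 was in bin 4, En1, Pbx2 and Pbx3 in bin 5, and Zic1 and Zic2 in bin 6. The medians of all genes in these bins were -0.11, -0.13 and -0.17. The median length was 2518.5 bases for the members tested and 2887.6 for all genes tested. The part of length in these values was not tested.

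**Figure D2:**
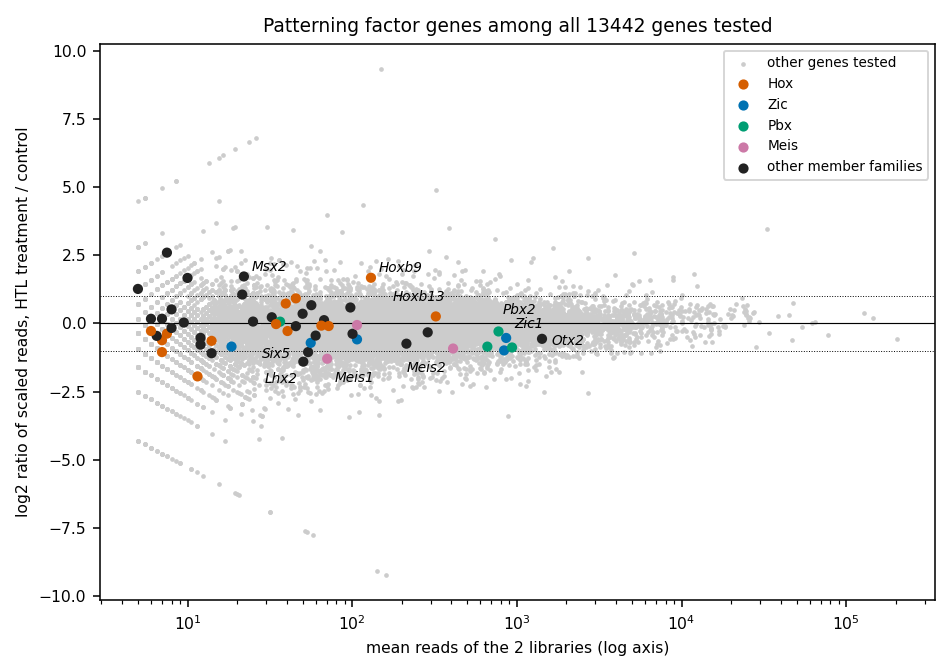
Log2 ratio of HTL treatment over control (vertical) against the mean reads of the 2 libraries (horizontal, log axis) for all 13442 genes tested, with members in colour or black and dotted lines at -1 and 1. Of the 14 members with a mean of at least 100 reads, 12 lay between 0 and -1 (Meis3 turned above 0 with TMM), inside the cloud of other genes.

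Otx2, which specifies forebrain and midbrain, was the most abundant member. It had 1783 reads in control (FPKM 75.5) and 1060 in HTL treatment (FPKM 51.0). The HTL treatment library was the lower one, with a log2 ratio of -0.56 (95% interval -0.68 to -0.45; adjusted p = 2e-23, exact binomial test with Benjamini-Hochberg adjustment), short of the fold needed for a call. Its relative Otx1 had 0 reads in control and 1 in HTL treatment.

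Lhx2, a LIM homeodomain factor of the forebrain and eye field, fell. It had 76 reads in control (FPKM 3.21) and 25 in HTL treatment (FPKM 1.19), a log2 ratio of -1.40 (95% interval -2.13 to -0.75; adjusted p = 2.67e-05, exact binomial test) and a 2.64-fold difference. Lhx6, a factor of forebrain interneurons, lay at the threshold in both libraries, with 32 reads in control (FPKM 0.93) and 33 in HTL treatment (FPKM 1.05). The other 5 Lhx genes were at an FPKM of at most 0.60. Lhx2 was therefore the LIM homeodomain member with most reads in control. In HTL treatment Lhx2 was no longer above Lhx6 in reads, but by FPKM it still was (1.19 against 1.05).

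Pax6, which acts in forebrain and eye and is a usual marker of neural progenitors, was low in both libraries. It had 69 reads in control (FPKM 1.76) and 66 in HTL treatment (FPKM 1.94), with a log2 ratio of 0.12 (95% interval -0.39 to 0.63), an interval that leaves room for a difference in either direction. Its exons overlap Elp4 on the opposite strand. The other 5 Pax genes had at most 6 reads in a library.

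En1 and En2 pattern the midbrain-hindbrain boundary, and both were expressed. En1 had 280 reads in control (FPKM 10.6) and 147 in HTL treatment (FPKM 6.29), a log2 ratio of -0.74 (95% interval -1.04 to -0.45; adjusted p = 9.48e-07, exact binomial test). En2 had 338 reads in control (FPKM 9.17) and 237 in HTL treatment (FPKM 7.29), a log2 ratio of -0.33 (95% interval -0.57 to -0.08). In both genes the HTL treatment library was lower under every scaling tried, and neither passed the fold for a call. Gbx1 and Gbx2, which act on the hindbrain side of that boundary, were at an FPKM of at most 0.53.

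Zic genes take part in dorsal patterning and neural tube closure. Zic1, Zic2, Zic4 and Zic5 had fewer scaled reads in HTL treatment, under each of the scalings tried, and none of them was called. Zic1 had 1071 reads in control (FPKM 30.7) and 651 in HTL treatment (FPKM 21.2), a log2 ratio of -0.53 (95% interval -0.68 to -0.39; adjusted p = 4.16e-13, exact binomial test). The others were counted less deeply. Zic2 had 135 reads in control (FPKM 4.37) and 79 in HTL treatment (FPKM 2.90), a log2 ratio of -0.58 (95% interval -1.01 to -0.18). Zic5 had 73 reads in control (FPKM 2.95) and 39 in HTL treatment (FPKM 1.79), a log2 ratio of -0.71 (95% interval -1.32 to -0.14). Zic4, below an FPKM of 1 in both libraries, had 25 and 12 reads.

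These genes lie in divergent pairs. The start sites of Zic1 and Zic4 are 3397 bases apart on chromosome 9, on opposite strands, and their annotated exons overlap, so reads of the pair cannot be told apart where counting ignores strand; whether strand was used is not stated. Those of Zic2 and Zic5 are 9705 bases apart on chromosome 14. In each pair both genes had fewer scaled reads in HTL treatment.

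The Pbx genes encode TALE partners of Hox proteins, and Pbx2 and Pbx3 were among the most abundant members. Pbx3 had 890 reads in control (FPKM 30.7) and 434 in HTL treatment (FPKM 16.7), a log2 ratio of -0.85 (95% interval -1.02 to -0.68; adjusted p = 5.74e-24, exact binomial test). This interval lay below that of Pbx2. Pbx2 had 901 reads in control (FPKM 30.9) and 646 in HTL treatment (FPKM 25.2), a log2 ratio of -0.29 (95% interval -0.44 to -0.15), and its exons overlap Gpsm3 on the same strand. Pbx4 had 38 reads in control (FPKM 2.73) and 35 in HTL treatment (FPKM 2.85). Per length, Pbx2 and Pbx3 had nearly the same level in control, and Pbx2 was the higher of them in HTL treatment.

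Meis proteins bind Pbx, and the 3 Meis genes did not move alike. Meis1 fell: it had 104 reads in control (FPKM 2.89) and 37 in HTL treatment (FPKM 1.17), a log2 ratio of -1.29 (95% interval -1.89 to -0.75; adjusted p = 2.6e-06, exact binomial test). Meis2 had 560 reads in control (FPKM 11.4) and 260 in HTL treatment (FPKM 5.91), a log2 ratio of -0.92 (95% interval -1.14 to -0.71; adjusted p = 1.98e-17, exact binomial test), short of a call. Meis3 had 116 reads in control (FPKM 6.39) and 98 in HTL treatment (FPKM 6.08), a log2 ratio of -0.06 (95% interval -0.46 to 0.34) whose sign turned with TMM. The intervals of Meis1 and Meis2 lay below that of Meis3. Per length, Meis2 was above Meis3 in control and slightly below it in HTL treatment. The exons of Meis1 overlap Gm16140, annotated on the opposite strand.

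Of the 6 Six-family genes, homeodomain factors that work with Eya proteins, 3 were expressed. Six5, which lies at the myotonic dystrophy locus, fell close to the threshold: it had 76 reads in control (FPKM 2.56) and 32 in HTL treatment (FPKM 1.22), a log2 ratio of -1.05 (95% interval -1.71 to -0.45; adjusted p = 0.000858, exact binomial test). With TMM its log2 ratio was -0.92 and the call was lost. Six4 had 120 reads in control (FPKM 2.05) and 81 in HTL treatment (FPKM 1.57), a log2 ratio of -0.38 (95% interval -0.81 to 0.04). Six2 had 26 reads in control (FPKM 1.19) and 24 in HTL treatment (FPKM 1.26). Six3 and Six6 were at an FPKM of at most 0.18.

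**Figure D3:**
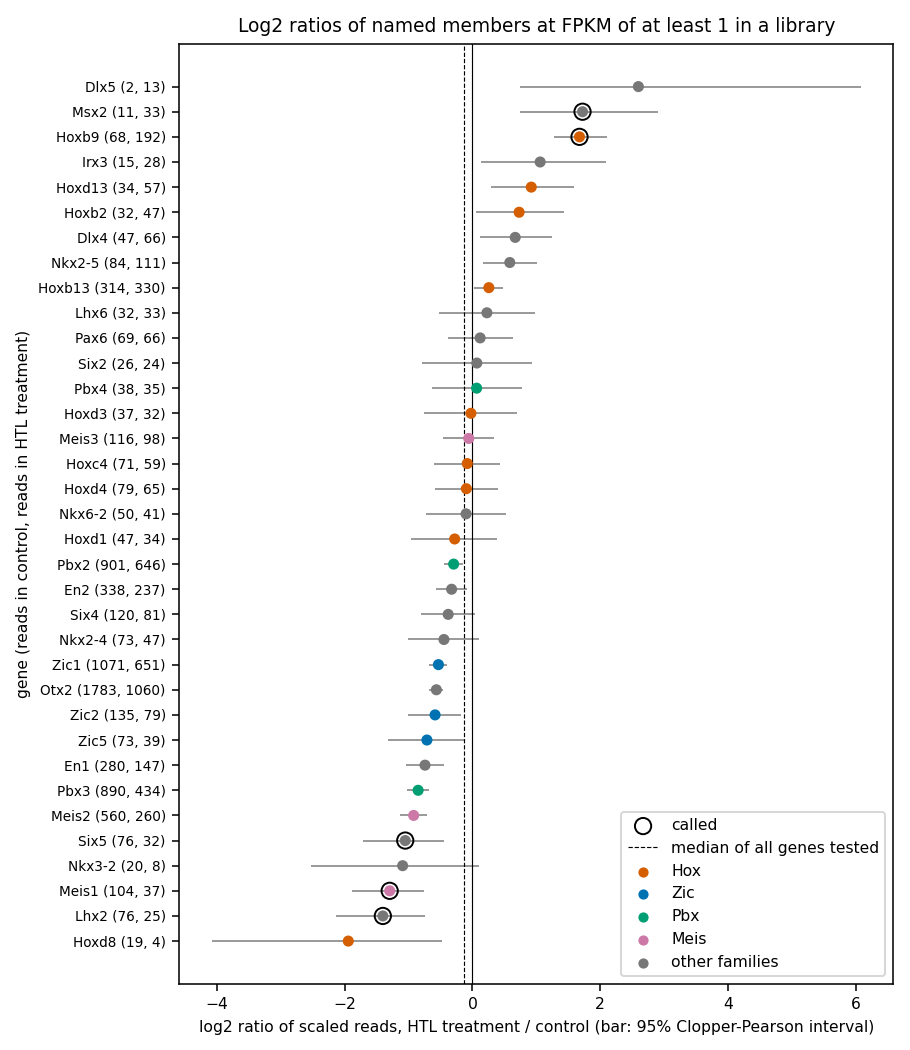
Log2 ratio of HTL treatment over control with its 95% Clopper-Pearson interval for members named in the text at an FPKM of at least 1 in either library, ordered by ratio; reads of control and of HTL treatment stand in brackets, circles mark the 5 called members and the dashed line is the median of all genes tested (-0.14). With library totals, Zic1, Zic2, Zic5, Pbx2, Pbx3, Meis1, Meis2, En1, En2 and Otx2 lay below 0 with intervals that do not reach it. The interval of En2 reaches 0 with the other scalings, and Hox genes fell on both sides.

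The Hox family held the clearest rise. Hoxb9, a posterior Hox gene of trunk and spinal cord, had 68 reads in control (FPKM 2.42) and 192 in HTL treatment (FPKM 7.72). It lies at chr11:96132771-96137909 on the plus strand (NCBIM37), and its log2 ratio was 1.68 (95% interval 1.28 to 2.10; adjusted p = 8.15e-18, exact binomial test), a 3.19-fold difference. Hoxb13, at the far end of the same cluster and the most abundant Hox gene, had 314 reads in control (FPKM 23.4) and 330 in HTL treatment (FPKM 27.9), a log2 ratio of 0.26 (95% interval 0.03 to 0.48) with no call. The end of Hoxb13 and the start of Hoxb9 are 74010 bases apart on the same strand. The 2 genes share 24 of the 30 homeobox bases shown above, and their intervals did not overlap.

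Expression along the clusters was uneven. Of 28 Hox genes in the table, 9 reached an FPKM of 1 in either library, and 19 stayed below it in both, with at most 18 reads. No Hoxa gene reached it, Hoxc4 was the only Hoxc gene that did, and the Hoxb cluster had Hoxb2, Hoxb9 and Hoxb13. The Hoxd cluster had Hoxd1, Hoxd3, Hoxd4 and Hoxd13, and Hoxd8 in control alone. The genes between Hoxb2 and Hoxb9 that the table lists, Hoxb3, Hoxb4, Hoxb7 and Hoxb8, were at an FPKM of at most 0.26.

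The expressed Hox genes other than Hoxb9 and Hoxb13 were thinly counted. Hoxd13, a distal limb and tail gene, had 34 reads in control (FPKM 1.32) and 57 in HTL treatment (FPKM 2.51). Hoxb2, a hindbrain gene, had 32 reads in control (FPKM 1.91) and 47 in HTL treatment (FPKM 3.18). Both were higher in HTL treatment with no call. Hoxc4 had 71 reads in control (FPKM 3.46) and 59 in HTL treatment (FPKM 3.27). Hoxd4 had 79 reads in control (FPKM 2.97) and 65 in HTL treatment (FPKM 2.78), and Hoxd3 had 37 (FPKM 1.23) and 32 (FPKM 1.20). The intervals of the log2 ratios of these 3 anterior genes included 0, their signs turned with TMM, and Hoxd3 and Hoxd4 share exons on the same strand. Hoxd1 had 47 reads in control (FPKM 2.42) and 34 in HTL treatment (FPKM 1.99). Hoxd8 had 19 reads in control (FPKM 1.04) and 4 in HTL treatment (FPKM 0.26), which was not called (adjusted p = 0.0114, exact binomial test).

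Summed over the family, Hox reads went from 777 in control to 863 in HTL treatment, a log2 ratio of 0.34 (95% interval 0.20 to 0.48). Without Hoxb9 the sum was 709 and 671 reads, a log2 ratio of 0.11 (95% interval -0.05 to 0.26), or 0.24 with TMM (95% interval 0.08 to 0.39), so whether the remaining sum was higher depended on the scaling. Of the 14 Hox genes tested, 10 had a log2 ratio below 0, and 7 with TMM. By paralog number, the sum of genes 9 to 13 had a log2 ratio of 0.64 (95% interval 0.46 to 0.82), or 0.32 without Hoxb9 (95% interval 0.11 to 0.53). The sum of genes 5 to 8 was 23 and 9 reads, and 4 and 5 reads without Hoxd8, so it followed that gene. The sum of genes 1 to 4 had a log2 ratio of -0.11 (95% interval -0.35 to 0.13). The 62 members outside the Hox family summed to 9616 reads in control and 5642 in HTL treatment, a log2 ratio of -0.58 (95% interval -0.63 to -0.54). These sums follow the most abundant genes. By gene, the Hox median log2 ratio was -0.19 and the non-Hox median -0.31, and 24 of the 40 non-Hox members tested were below 0, so the contrast of the sums is not one between the typical Hox and non-Hox gene.

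**Figure D4:**
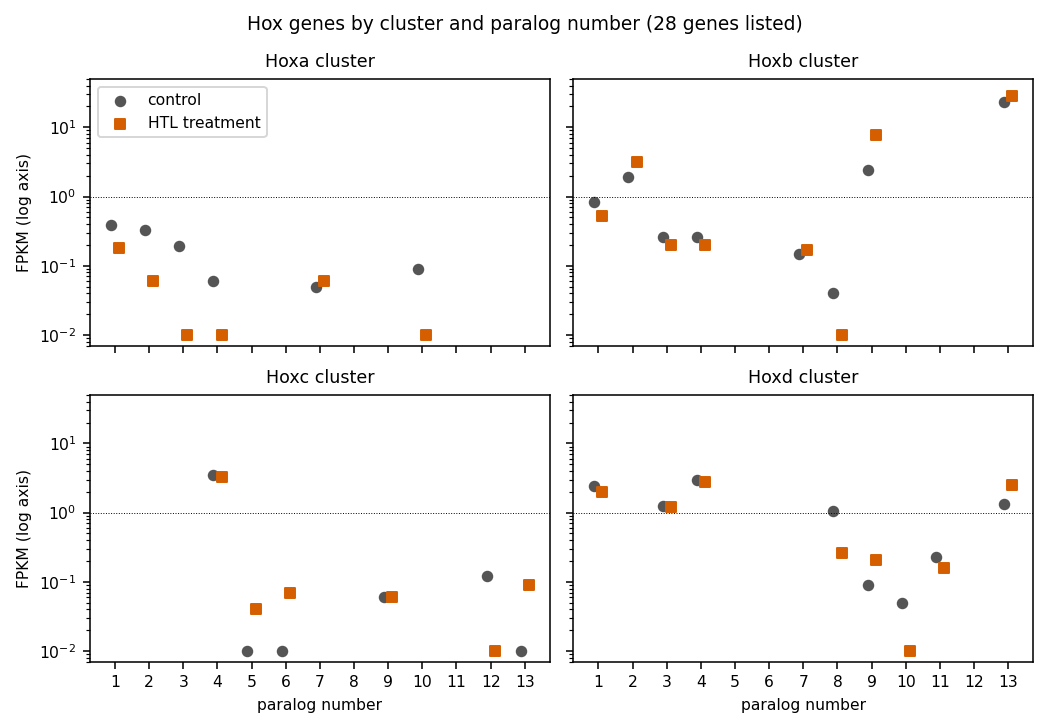
FPKM (log axis) of the 28 Hox genes by paralog number in the 4 clusters, with control as circles, HTL treatment as squares, a dotted line at an FPKM of 1 and 0.01 standing for 0 reads. Hoxb13 (23.4 and 27.9) and Hoxb9 (2.42 and 7.72) stood above their neighbours in the Hoxb cluster, and all Hoxa genes were at or below 0.39.

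Msx2, a dorsal neural tube and neural crest factor, was the other member that rose. It had 11 reads in control (FPKM 0.48) and 33 in HTL treatment (FPKM 1.68), a log2 ratio of 1.72 (95% interval 0.75 to 2.90; adjusted p = 0.000556, exact binomial test). The wide interval reflects the few reads, and the gene crossed the FPKM threshold in HTL treatment only. The call of Msx2 was lost with a filter of a mean of at least 50 reads and with the ratio of FPKM + 1. It was also lost in edgeR's exact test at an assumed biological coefficient of variation of 0.1. Msx1 and Msx3 were at an FPKM of at most 0.80, and Msx1 had 16 reads in control and 8 in HTL treatment.

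No Nkx or Dlx member was called. In control, 5 of the 9 Nkx members and 1 of the 5 Dlx members reached an FPKM of 1. Nkx2-5, a heart factor, had 84 reads in control (FPKM 5.36) and 111 in HTL treatment (FPKM 8.04). Nkx2-4 had 73 reads in control (FPKM 6.74) and 47 in HTL treatment (FPKM 4.92). The order of these relatives by FPKM differed between the libraries, with Nkx2-4 ahead in control and Nkx2-5 ahead in HTL treatment. Nkx3-2, a skeletal factor, had 20 reads in control (FPKM 1.36) and 8 in HTL treatment (FPKM 0.62), and Nkx6-2, a ventral neural tube factor, had 50 (FPKM 2.54) and 41 (FPKM 2.36). Dlx4 had 47 reads in control (FPKM 2.50) and 66 in HTL treatment (FPKM 3.99), with exons that overlap a gene on the opposite strand. Dlx5, a factor of ventral forebrain and skeleton, had 2 reads in control (FPKM 0.14) and 13 in HTL treatment (FPKM 1.02), too few for a call (adjusted p = 0.0063, exact binomial test). Irx3, which helps set the ventral domains of the neural tube, had 15 reads in control (FPKM 0.61) and 28 in HTL treatment (FPKM 1.30), with no call, and the other 5 Irx genes were at an FPKM of at most 0.41.

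The 52 members below an FPKM of 1 in both libraries held 230 reads in control and 184 in HTL treatment, and 16 of them passed the filter for testing with no call. They were 19 Hox genes, 5 each of Irx, Lhx and Pax, 4 Nkx, 3 each of the Dlx-family and Six-family, 2 each of Gbx and Msx, and Emx2, Gsx2, Otx1 and Zic4. Nkx1-2 had 8 reads in control and 0 in HTL treatment, too few to be tested. Lhx1, a LIM homeodomain factor, had 5 reads in control and 15 in HTL treatment (log2 ratio 1.67, 95% interval 0.24 to 3.58; adjusted p = 0.0253, exact binomial test). No member of this set had more than 25 reads in a library, which limits what could be detected.

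Grouped by region of the neural tube, summed reads were lower in HTL treatment for forebrain and midbrain factors and for boundary factors. Of the dorsal factors described above, Zic1, Zic2 and Zic5 were lower as well, and Msx2 rose. Zic4 and Msx1, with at most 25 reads in a library, also had fewer scaled reads in HTL treatment, with intervals that included 0. Forebrain and midbrain factors (14 members) summed to 1989 reads in control and 1226 in HTL treatment, a log2 ratio of -0.51 (95% interval -0.62 to -0.41), and most of these reads were Otx2. Midbrain-hindbrain boundary factors (6 members) had a log2 ratio of the sum of -0.46 (95% interval -0.64 to -0.28), carried by En1 and En2. Ventral factors (6 members) had 81 and 86 reads, and their interval (-0.18 to 0.73) included 0. The median log2 ratios of the single genes tested were -0.20, 0.17 and 0.03 in the same order, so the boundary and ventral medians lay above 0 while the boundary sum was below 0.

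By residue 50, both members called higher, Hoxb9 and Msx2, carry glutamine. So do 58 of the 81 members with a homeobox match, and 31 of the 54 members tested. Of those called lower, Lhx2 carries glutamine, Meis1 isoleucine and Six5 lysine. These are single genes, and a relation of residue to direction was not tested.

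The sequence before the start site was read for the called members with a single RefSeq start, because Meis1 fell and Msx2 rose. Windows were present for 61 of the 90 members, 74 windows in all. The 250 bases before the start (RefSeq, GRCm38.p6) are given with 3 short motifs in capitals, where found on either strand: the CCAAT box, the GC box GGGCGG and the homeodomain core TAATTA. They are shown for Meis1 (chr11:19018970-19019219, minus strand) and Msx2 (chr13:53472781-53473030, minus strand).
Meis1: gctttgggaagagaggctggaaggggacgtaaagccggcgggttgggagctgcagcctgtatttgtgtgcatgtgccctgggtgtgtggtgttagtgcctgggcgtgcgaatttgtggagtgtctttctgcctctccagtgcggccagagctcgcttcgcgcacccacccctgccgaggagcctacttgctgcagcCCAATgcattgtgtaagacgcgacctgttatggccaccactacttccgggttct
Msx2: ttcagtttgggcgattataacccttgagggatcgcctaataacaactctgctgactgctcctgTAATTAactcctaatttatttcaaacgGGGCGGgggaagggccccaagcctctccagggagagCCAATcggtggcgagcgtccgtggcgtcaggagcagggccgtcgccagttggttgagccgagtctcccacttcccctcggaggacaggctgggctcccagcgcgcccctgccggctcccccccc

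Both windows hold CCAAT, and the Msx2 window also holds GGGCGG and TAATTA, the core bound by many homeodomains. Over the windows of the members, on both strands, CCAAT was present in 47.3% (33.8% of all 32851 windows), GGGCGG in 48.6% (32.7%), TAATTA in 6.76% (4.84%), TGACAG in 18.9% (15.9%), TAATCC in 1.35% (6.25%) and TATAAA in 12.2% (12.4%). The motifs TAATTA and TAATCC share their opening letters, and none of the motifs contains another. Members were richer in CpG, with a median of 14.5 CpG per window against 6 for all windows and a GC content of 61.2% against 52.4%. Such matches describe the letters and not binding.

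The partners and cofactors of these factors were read from lists chosen by known function. The counts of calls in these lists stand against 2.81% of all genes tested called higher and 7.98% called lower. Among TALE genes outside the members, Tgif1, a repressor, was the most abundant in control (FPKM 33.3, and 18.1 in HTL treatment) and Tgif2 in HTL treatment (FPKM 30.1 in control and 28.1). Of the 4 such genes tested, 0 were called by the exact binomial test, and 2 were lower by the adjusted p alone. Of 15 cofactors of Six-type and LIM homeodomain proteins tested, 0 were called higher and 2 lower. Eya1, the coactivator of Six-family proteins, fell from 778 reads (FPKM 17.1) to 148 (FPKM 3.72), a log2 ratio of -2.21 (95% interval -2.47 to -1.95), and Eya4 fell from 27 reads to 5. The LIM cofactor Ldb2 was the most abundant in control (FPKM 75.5, and 39.2 in HTL treatment), and Ldb1 in HTL treatment (FPKM 66.4 in control and 52.8). Of 16 corepressors tested, Tle3, a Groucho protein bound by several homeodomain factors, rose from 2044 to 4170 reads (log2 ratio 1.21), and Ncor1 fell from 3488 to 1267 (log2 ratio -1.28). Of 14 genes of retinoic acid signalling tested, which sets Hox boundaries in the embryo, 1 was called higher and 2 lower. Crabp2, a retinoic acid carrier, rose from 495 reads (FPKM 54.4) to 1026 (FPKM 128), a log2 ratio of 1.24, while Rxrg fell by 1.90 and Rdh10 by 1.26 on the log2 scale.

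Homeobox genes that the symbol rule leaves out gave 1 call higher and 4 lower among 48 tested, shares near the background of 2.81% higher and 7.98% lower. Phox2a rose (38 and 81 reads, log2 ratio 1.27), and Pou2f2 had the largest called fall (41 and 9 reads, log2 ratio -1.95). Pou5f1, a POU homeobox factor of pluripotent cells, exceeded every member, at an FPKM of 1870 in control and 2114 in HTL treatment. Other regional factors of the neural tube gave 1 call higher (Tfap2c, log2 ratio 1.61) and 2 lower among 22 tested, with Eomes the largest fall (413 and 92 reads, log2 ratio -1.98). Sall1 led this list in control (FPKM 44.1, and 25.9 in HTL treatment) and Tcf7l1 led it in HTL treatment (FPKM 41.3 in control and 42.9). Of 3 antisense or overlapping genes at member loci that were tested, 0 were called, and 0 passed the adjusted p alone in the exact binomial test. Haglr, beside the Hoxd genes, led these 3 in level, at an FPKM of 1.96 in control and 1.38 in HTL treatment. Hotairm1, on the same list but with too few reads to be tested (2 and 3), had an FPKM of 0.88 and 1.49.

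Markers of the labelled cell type were mixed, and calls in the marker lists are to be read against 2.81% of all genes tested called higher and 7.98% called lower. Nes (FPKM 25.1 and 24.1), Msi1 (38.7 and 39.5), Vim (78.5 and 38.8) and Sox2 (34.7 and 12.6) were present, while Fabp7 and Hes5 had at most 2 reads and Sox1 had 48 and 12. Of 10 neural progenitor markers tested, Notch1 was called higher (FPKM 1.24 and 2.63) and Sox1, Sox2, Sox3 and Vim lower, and the list summed to an FPKM of 230.6 in control and 160.0 in HTL treatment. Of 6 pluripotent cell markers tested, Klf4 was called higher and Lin28a (FPKM 219 and 104) and Tdgf1 (197 and 57.3) lower, and the list summed to 2312 and 2294 with Pou5f1 and to 441.4 and 179.9 without it. Of the remaining lists, 1 of 5 neural crest markers was called higher and 1 lower (sum 48.4 and 26.7), 1 of 10 neuron markers lower (59.6 and 68.0), 1 of 4 glia markers higher (22.9 and 24.6), 1 of 7 mesoderm and fibroblast markers lower (12.1 and 7.85) and 1 of 3 endoderm markers higher (7.39 and 7.44). Gfap, the astrocyte marker, had 2 reads in control and 0 in HTL treatment. With TMM, Vim (log2 ratio -0.88), Lin28a (-0.94) and T (-0.91) were short of the fold for a call. Within the progenitor list some markers were thus lower, as Lhx2, Meis1 and Otx2 were, and others higher or little different, and the part of cell makeup in the members' values was not tested.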

How the data were processed

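RNA-seq of 1 control and 1 HTL treatment library of NE4C cells was used, grouped by sample title. The authors estimated counts per gene with RSEM and deposited them as fractional expected counts, not normalized. Per the labels, libraries were made with a TruSeq kit and the genome build was mm9. The mapper, versions, annotation and strand are not given in the sources used here. The authors also deposited FPKM, scaled per length and depth (lowest value 0.01). The deposited log2 ratio, p-value and FDR are the authors' own comparison and were not used.

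Estimated counts were rounded. The exact conditional binomial test, its filter (10 reads) and cutoffs (adjusted p 0.001, absolute log2 ratio 1) were applied to the whole table, with 0.5 read added for log2 ratios and 95% Clopper-Pearson intervals. Fractional counts were found for 21 members, and 30 members have exons overlapping another gene. Coordinates came from GENCODE M1 on NCBIM37 for 88 members. Alternatives used edgeR 4.0.16 in R 4.3.3, and tests scipy 1.17.1. On simulated data of 13442 genes, 200 of 200 changed genes were recovered. Named were the called members and those at an FPKM of at least 1, and from each companion list the largest called rise and fall and the highest FPKM. Results for some members and sequences are not reported here. Members, lists and tests were chosen with earlier results of these data known. Alternatives were 3 other scalings, 2 other filters, 5 added reads, other cutoffs, ratios from FPKM + 1, and assumed coefficients of variation. Models that estimate replicate error could not be fitted.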

Additional observations from a re-analysis of the deposited data

How the results depend on the processing

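Members called higher (2 by the exact binomial test) numbered 1 with a mean of at least 50 reads, 1 with the ratio of FPKM + 1, 5 with an adjusted p of at most 0.05, and 1, 0 and 0 with edgeR's exact test at an assumed biological coefficient of variation of 0.1, 0.2 and 0.4. Hoxb9 kept its call at 0.1, and at 0.2 its adjusted p from edgeR's exact test was 0.0117. Members called lower (3) numbered 11 with no limit on the log2 ratio, 0 with the ratio of FPKM + 1 and 0 at each of the 3 assumed coefficients of variation. At 0.1, edgeR's exact test gave an adjusted p of 0.00128 for Meis1, 0.00186 for Lhx2, 0.0213 for Six5 and 0.00587 for Msx2. Six5 lost its call under the 3 other scalings, with 5 reads added and with at least 1 read as the filter. The median log2 ratio of the members kept its sign throughout, between -0.45 and -0.07. Expressed members numbered 13 in each library at an FPKM of at least 5, and 56 in control and 60 in HTL treatment with more than 3 reads. Hoxc4, Hoxd3, Hoxd4, Meis3 and Nkx6-2, which were not called, changed sign under other scalings. No paired analysis was possible because only 1 library of each group exists here, which also leaves no replicate to leave out. Depth limited members with few reads: 36 were not tested.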
